A study of Mus musculus with 6 samples.

Results

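The mitochondrial ribosomal protein genes were followed through the deposited expression table of WT and lincRNA-EPS knockout (KO) osteoclast precursors. They were taken as the rows listed as protein coding whose symbol starts with Mrpl or Mrps and a digit, so the rule used no measured value, although the set was chosen with earlier results of these data known. This gave 76 genes of the 57180 in the table, or of the 21400 listed as protein coding. By symbol, 47 of them belong to the large subunit (Mrpl) and 29 to the small subunit (Mrps). Mrpl20 and Mrpl33 are large-subunit genes as well, but the table lists both as nonsense-mediated decay, so they stand outside the 76.

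The mitochondrial ribosome makes the few proteins that the mitochondrial genome encodes, all of them core subunits of the respiratory chain and the ATP synthase. Its ribosomal RNAs come from the mitochondrial genome, whereas all its proteins are encoded in the nucleus, made in the cytosol and imported. Some of these proteins descend from the bacterial ribosome, and others were added during the evolution of mitochondria. Osteoclasts are rich in mitochondria, and a resorbing osteoclast spends much ATP on acidifying the bone surface beneath it.

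The cells were bone marrow-derived macrophages of WT or lincRNA-EPS-/- mice, with 3 libraries for each genotype. All cultures received M-CSF, the macrophage growth factor, at 40 ng/ml for 24 h. For a further 48 h they were given 40 ng/ml of RANKL, the cytokine that commits macrophages to the osteoclast lineage, which turns the macrophages into osteoclast precursors (OCPs). The labels do not say whether the 3 libraries of a genotype came from separate mice, so the p-values measure only the spread between these libraries.

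LincRNA-EPS itself, listed as Ttc39aos1, had 20, 37 and 41 counts in WT libraries 1, 2 and 3 and 0 counts in every KO library. The libraries held 17757351 to 19998611 estimated counts each. Levels below are CPM, the counts of a gene scaled to library size by TMM, a relative measure, so in these bulk samples fewer cells of a type and less RNA per cell cannot be told apart. The 6 macrophage markers, led by Cd68, summed to 3488 to 3851 CPM in WT and 3155 to 3274 in KO, and the 8 osteoclast precursor markers, led by Ctsk, to 2716 to 2842 and 3983 to 4148. The 9 neutrophil markers, led by S100a9, summed to 1249 to 1408 CPM in WT and 1669 to 2009 in KO. None of these markers was at 0 in all libraries. The sums of B cell, T cell, erythroid and stromal markers were at most 20.3 CPM in any library, and the 4 megakaryocyte markers, led by Ppbp, summed to 171 to 206. The B cell sum was 5.15 to 6.32 CPM in WT and 6.35 to 8.05 in KO, and the T cell sum 0.301 to 0.367 and 0.460 to 0.560. The macrophage, osteoclast precursor, neutrophil, B cell and T cell sums thus did not overlap between genotypes, and their part in the differences below was not tested.

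Most mitochondrial ribosomal protein genes were somewhat higher in KO OCPs, but no single gene passed the limits of an adjusted p under 0.01 and a fold change above 1.3. By edgeR's quasi-likelihood test, 66 of these genes had a positive log2 fold change, and the median was 0.22, against 0.01 over all 13428 genes tested. All 76 genes passed the filter on low counts. The number past the limits was 0 of 76 in either direction, where 0.0% of all genes tested were called higher and 0.00745% lower. The smallest adjusted p was 0.147 and was shared by 15 of the genes.

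At an unadjusted p under 0.05, edgeR placed 29 of the 76 genes (38.2%) higher in KO, against 13.0% of all genes tested. It placed 0 of them lower, against 13.2% of all genes tested. The count of 29 was 16 without WT library 2 and 18 without KO library 2. The share of all genes tested in those fits is not given here, so these counts stand without a background. In 38 of the genes (50.0%) all KO libraries lay above all WT libraries, against 16.9% of all genes tested. The reverse was seen for Mrps26 alone, or 1.32%, against 18.8% of all genes tested. DESeq2 put 0 of the 76 past the limits, where 0.516% of the genes to which it gave an adjusted p were past them as higher and 0.689% as lower. At an unadjusted p under 0.05 it placed 28 higher, against 14.3% of those genes. It placed 0 lower at that p, for which the share of all genes is not given here. With a laxer adjusted p under 0.05 and the same fold limit, DESeq2 called 9 of the genes higher (11.8%), against 3.21% of the genes to which it gave an adjusted p. These 9 were Mrpl11, Mrpl15, Mrpl32, Mrpl47, Mrpl48, Mrpl51, Mrps18c, Mrps21 and Mrps25.

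**Figure D1:**
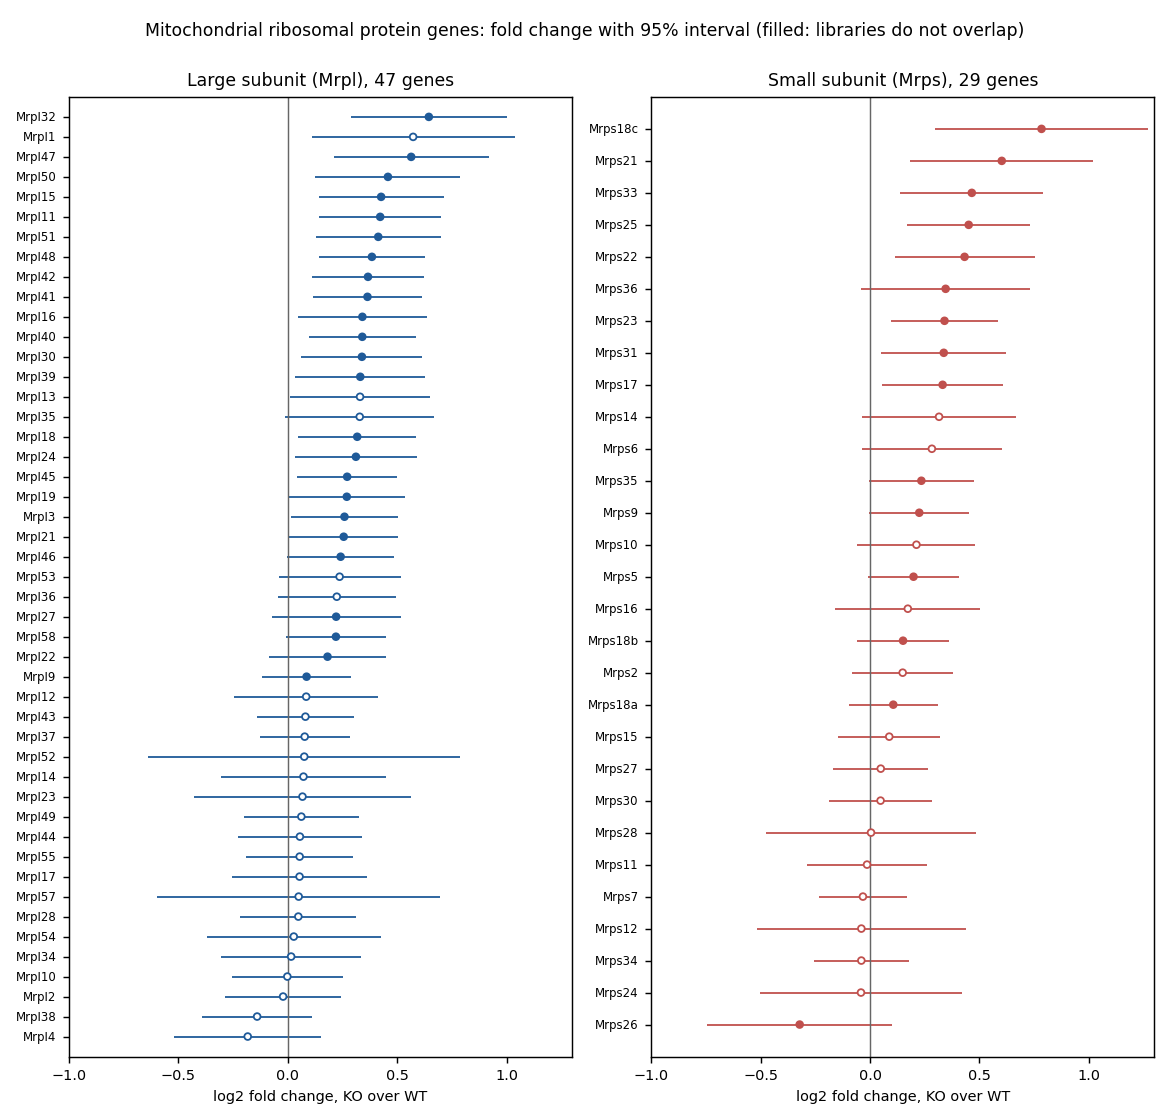
Log2 fold change of KO over WT (x axis) with its 95% interval from edgeR for the 47 large-subunit genes (left) and the 29 small-subunit genes (right), ordered by size, where filled points mark genes whose WT and KO libraries do not overlap. Most points lie to the right of 0, from 0.78 for Mrps18c down to -0.32 for Mrps26, and many intervals include 0.

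The large-subunit genes with the largest increases are led by Mrpl32, whose protein must be cleaved by a protease of the inner mitochondrial membrane before ribosomes can be assembled. Mrpl32 stood at 22.1, 18.8 and 22.3 CPM in WT libraries 1, 2 and 3 and at 26.5, 32.6 and 39.6 CPM in KO libraries 1, 2 and 3. All KO libraries lay above the highest WT library. The mean was 21.0 ± 1.96 CPM in WT and 32.9 ± 6.58 in KO (SD, n = 3), a log2 fold change of 0.64 ± 0.158 (SE) with an adjusted p = 0.147 in edgeR and 0.0161 in DESeq2. Mrpl47, a protein near the exit of the tunnel through which the new chain leaves, stood at 19.1, 15.98 and 18.5 CPM in WT and at 22.3, 24.5 and 32.3 CPM in KO. Its libraries did not overlap either, and KO library 3 was again the highest. The log2 fold change of Mrpl47 was 0.56 ± 0.156 (SE).

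Mrpl11, which forms the base of the stalk that translation factors contact, stood at 31.3, 26.1 and 28.4 CPM in WT and 33.5, 39.6 and 42.0 CPM in KO. Mrpl15, a conserved core protein of the large subunit, stood at 44.8, 38.7 and 45.0 CPM in WT and 49.3, 58.3 and 65.2 CPM in KO. Mrpl50, a protein without a bacterial counterpart, stood at 32.5, 27.3 and 35.4 CPM in WT and 37.0, 43.0 and 50.8 CPM in KO. In each of these 3 genes the KO libraries lay above the WT libraries, and KO library 1 lay nearest to them. Their log2 fold changes were 0.42 for Mrpl11, 0.43 for Mrpl15 and 0.46 for Mrpl50. Mrpl1, the protein of the mobile stalk beside the exit site, had a larger log2 fold change of 0.57 ± 0.205 (SE), but its groups overlapped. It stood at 21.9, 16.9 and 19.6 CPM in WT and 20.8, 28.5 and 37.5 CPM in KO, so that KO library 1 lay within the WT range. Without KO library 3 its log2 fold change was 0.34.

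Among the small-subunit genes the largest increase was that of Mrps18c, 1 of 3 vertebrate genes related to a single bacterial ribosomal protein. It stood at 26.2, 19.7 and 30.1 CPM in WT and 32.9, 41.6 and 56.3 CPM in KO. The groups did not overlap, but WT library 3 and KO library 1 were close. The mean was 25.3 ± 5.29 CPM in WT and 43.6 ± 11.9 in KO (SD, n = 3), a 1.72-fold difference and a log2 fold change of 0.78 ± 0.215 (SE), with an adjusted p = 0.147 in edgeR and 0.0191 in DESeq2.

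Mrps21, a short protein of bacterial descent, stood at 34.5, 24.9 and 33.1 CPM in WT and 37.5, 44.4 and 58.6 CPM in KO. Mrps25, a protein added in mitochondria, stood at 46.1, 40.5 and 49.1 CPM in WT and 53.3, 64.2 and 68.1 CPM in KO. Neither gene overlapped between genotypes, and WT library 2 was the lowest library of both. The log2 fold change was 0.60 ± 0.184 (SE) for Mrps21 and 0.45 ± 0.124 (SE) for Mrps25. Mrps33 and Mrps22, further proteins of mitochondrial origin, had 0.47 and 0.43. Mrps22 is mutated in a human mitochondrial disease, as is Mrps16, a conserved protein of the small subunit whose log2 fold change was 0.17 ± 0.146 (SE) with overlapping groups. The value of Mrps16 was 0.081 without KO library 1, 0.085 without WT library 2 and 0.29 without KO library 3.

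Several of the largest log2 fold changes were smaller without WT library 2 and KO library 3. With both left out, a setting chosen after seeing the data, the log2 fold change was 0.40 for Mrps18c, 0.41 for Mrpl32, 0.28 for Mrps21, 0.25 for Mrpl1, 0.32 for Mrpl47, 0.28 for Mrps33, 0.24 for Mrpl50, 0.26 for Mrpl15 and 0.22 for Mrps22. In that fit edgeR placed 26 members higher at an unadjusted p under 0.05, against 8.98% of all genes tested.

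**Figure D2:**
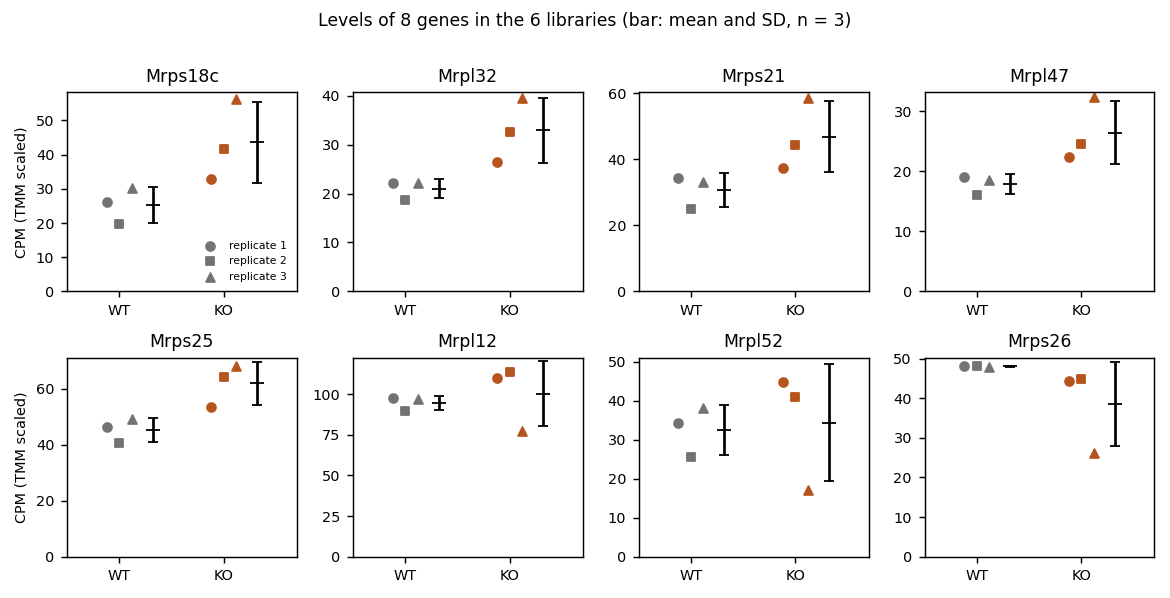
CPM (y axis, starting at 0) of 8 genes in WT and KO OCPs, with circles, squares and triangles for libraries 1, 2 and 3 and bars for the mean and SD (n = 3). In Mrps18c, Mrpl32, Mrps21, Mrpl47 and Mrps25 KO library 3 is the highest library, whereas in Mrpl12, Mrpl52 and Mrps26 it is the lowest.

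At the other end, 10 of the 76 genes had a negative log2 fold change, and KO library 3 was the lowest library in most of them. Mrps26, a small-subunit protein of mitochondrial origin, stood at 48.0, 48.2 and 47.8 CPM in WT and 44.2, 44.9 and 26.2 CPM in KO. The WT libraries were nearly equal, KO libraries 1 and 2 lay slightly below them, and KO library 3 lay far below. Its log2 fold change was -0.32 ± 0.187 (SE), with an adjusted p = 0.289 in edgeR, and -0.11 without KO library 3. Mrpl4, which lines the exit tunnel, stood at 50.6, 58.9 and 53.9 CPM in WT and 53.4, 53.2 and 37.3 CPM in KO. The log2 fold change of Mrpl4 was -0.18 with all libraries and -0.03 without KO library 3. Mrpl38, also on the large subunit, had -0.14, or -0.05 without KO library 3. The values of Mrpl2, a protein at the catalytic centre, of Mrpl10, which holds the stalk, and of Mrps7, Mrps12, Mrps24 and Mrps34 lay between -0.04 and 0.

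KO library 3 was below all 5 other libraries in 20 of the 76 genes. In 10 of these 20, KO libraries 1 and 2 both lay above the highest WT library. Mrpl52, a large-subunit protein of mitochondrial origin, was 1 of them, at 34.3, 25.5 and 38.1 CPM in WT and 44.9, 41.1 and 17.2 CPM in KO. Its fold change therefore has a wide interval, from -0.64 to 0.79 on the log2 scale. Mrpl57 behaved alike, with 29.1 and 30.0 CPM in KO libraries 1 and 2, 12.2 in KO library 3 and 21.5 to 24.3 in WT. Mrpl12, the stalk protein that recruits translation factors and has the highest CPM of the 76 genes, stood at 97.7, 89.3 and 96.7 CPM in WT and 110.0, 113.4 and 77.3 CPM in KO, so the groups overlapped only through KO library 3. Mrps12, at the decoding centre, stood at 23.1, 18.8 and 24.1 CPM in WT and 25.5, 24.5 and 14.4 CPM in KO, with the same pattern.

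Taken by library, most of the 76 genes lay above their WT mean in KO libraries 1 and 2, and they were more widely spread in KO library 3. Relative to each gene's WT mean, the median log2 level was 0.16 in KO library 1, 0.28 in KO library 2 and 0.20 in KO library 3, and between -0.11 and 0.04 in the WT libraries. The same median over all genes tested lay between -0.01 and 0 in each of the 6 libraries. Above the WT mean were 69 of the genes in KO library 1, 72 in KO library 2 and 51 in KO library 3. KO library 3 held the highest value of 27 genes and the lowest of 20. WT library 2 held the lowest value of 41 genes.

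**Figure D3:**
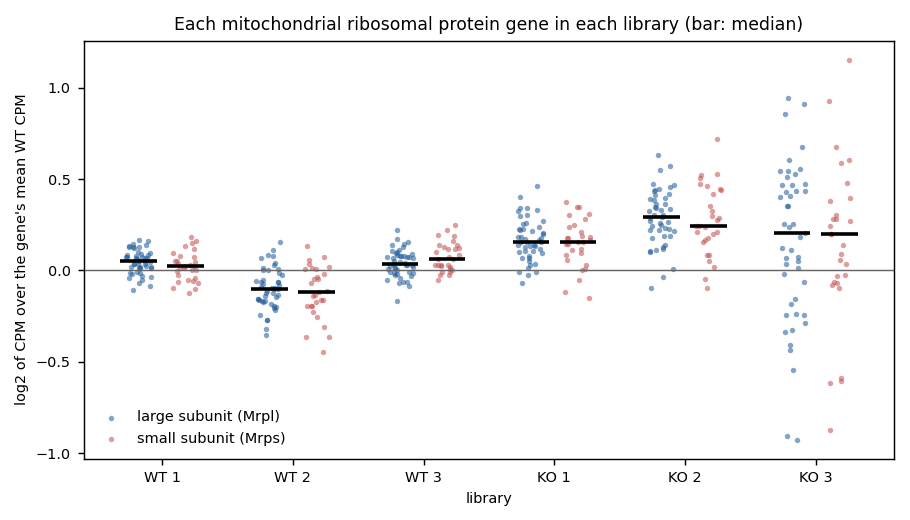
Log2 of CPM over the gene's mean WT CPM (y axis) in each library (x axis), with 1 point per gene, large subunit in blue, small subunit in red, and bars for the medians. The points of KO libraries 1 and 2 lie mostly above 0, and those of KO library 3 range from -0.93 to 1.15.

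The large and the small subunit had similar fold changes. The median log2 fold change was 0.24 over the 47 Mrpl genes, with quartiles of 0.07 and 0.34, and 0.20 over the 29 Mrps genes, with quartiles of 0.05 and 0.34. A positive value was found for 43 of 47 Mrpl genes (91.5%) and for 23 of 29 Mrps genes (79.3%). At an unadjusted p under 0.05, edgeR placed 21 Mrpl genes (44.7%) and 8 Mrps genes (27.6%) higher in KO, against 13.0% of all genes tested. All KO libraries lay above all WT libraries for 24 Mrpl genes (51.1%) and 14 Mrps genes (48.3%), against 16.9% of all genes tested. The medians differed by 0.04 on the log2 scale, which is about the spread between replicates of that difference (SD 0.03), and without KO library 1 the sign was reversed at -0.002. The difference was larger without WT library 1, at 0.07, and after correction for GC content, at 0.079.

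Summed over the subunit, the Mrpl genes reached 1708, 1562 and 1712 CPM in WT libraries 1, 2 and 3 and 1856, 2021 and 1905 CPM in KO libraries 1, 2 and 3. The Mrps genes reached 1011, 928 and 1043 CPM in WT and 1095, 1201 and 1141 CPM in KO. Both sums were higher in each KO library than in any WT library. Their ratio, Mrpl over Mrps, was 1.69, 1.68 and 1.64 in WT and 1.69, 1.68 and 1.67 in KO, and these ranges overlapped. Together the 76 genes took 0.248% to 0.277% of all counts in WT and 0.299% to 0.316% in KO.

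Symbols do not always give the place in the ribosome. Mrps18a and Mrps30 sit in the large subunit of the assembled mitoribosome, and Mrps36 is known as a part of the alpha-ketoglutarate dehydrogenase complex. Placed by structure, 49 large-subunit genes had a median log2 fold change of 0.22 and 26 small-subunit genes one of 0.21. Mrps18a stood at 38.5, 39.5 and 39.4 CPM in WT and 41.8, 41.4 and 43.1 CPM in KO, without overlap, and its log2 fold change was 0.11 ± 0.0896 (SE). Mrps18b, its relative in the small subunit, had 0.15 ± 0.0926 (SE), also without overlap, so the Mrps18 genes spanned from 0.11 to the 0.78 of Mrps18c. After the GC correction described further on, Mrps18a had 0.31, Mrps18b 0.24 and Mrps18c 0.62. No test of the difference between these 3 genes was made. Mrps30 had 0.05 with overlapping groups and Mrps36 had 0.35 without overlap, or 0.17 without WT library 2.

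Genes of bacterial and of mitochondrial origin had similar medians, 0.22 over 44 and 0.24 over 31 genes. Here Mrps18c was counted as bacterial, but Mrps18a and Mrps18b as mitochondrial, although all 3 are related to a single bacterial protein. With all libraries and no correction, the lowest of the 4 classes by place and origin was the small subunit of bacterial origin. It had a median of 0.19 over 16 genes and 3 genes higher at an unadjusted p under 0.05 in edgeR. The highest was the small subunit of mitochondrial origin, with 0.29 over 10 genes and 5 genes higher at that p. Of all genes tested, 13.0% were higher at that p. In the large subunit, the medians were 0.24 over 28 bacterial and 0.22 over 21 mitochondrial genes. Without WT library 2 and KO library 3 the bacterial class of the large subunit was lowest, at 0.159 against 0.162 for that of the small subunit. After GC correction the bacterial class of the large and the mitochondrial class of the small subunit both had 0.269. Among large-subunit genes named for their roles, Mrpl58, a peptidyl-tRNA hydrolase that became part of the ribosome, had a log2 fold change of 0.22 ± 0.102 (SE) and libraries that did not overlap, at 20.6, 19.5 and 21.1 CPM in WT and 23.1, 23.8 and 24.3 CPM in KO. Mrpl44, which has a fold like RNase III, had 0.06 ± 0.125 (SE), and Mrpl36, a very short conserved protein, 0.22 ± 0.119 (SE), both with overlapping groups. Without KO library 2 the value of Mrpl36 was 0.13.

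The GC content of the transcripts moved with these differences. Over the 76 genes, the log2 fold change and the GC content of the longest coding transcript had a Pearson correlation of -0.62, and over the 13176 genes tested with a GC value it was -0.51. The points share the same 6 libraries. The deviation of a library was taken from the mean of all 6 libraries, so it includes the difference between genotypes. Over the 13176 genes it correlated with GC at 0.57 in WT library 2 and -0.61 in KO library 3. In the other 4 libraries the correlation lay between -0.09 and 0.23. The 19 members lowest in GC, from 39.6% to 45.8%, had a median log2 fold change of 0.39, against 0.21 for all genes tested in that range. The 19 highest, from 54.0% to 60.6%, had 0.02, against -0.23 for all genes tested in that range. In each of 4 equal groups by GC the members' median lay above that of all genes tested in the same range, at 0.24 against 0.04 and 0.22 against -0.08 in the middle groups.

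After a correction for GC content in each library, 72 of the 76 genes had a positive log2 fold change. The median was 0.27 for the Mrpl genes and 0.19 for the Mrps genes, and -0.002 for all genes tested. At an unadjusted p under 0.05, edgeR then placed 44 of the 76 (57.9%) higher, against 12.6% of all genes tested. It placed 0 of them lower, against 1865 of all 13428 genes tested. The smallest adjusted p was 0.0595, for Mrpl32, so none passed the limits. The largest increases became smaller, except that of Mrps21 at 0.70. They were 0.62 for Mrps18c, 0.41 for Mrpl32, 0.42 for Mrpl47, 0.32 for Mrpl1, 0.30 for Mrps33 and 0.24 for Mrpl50. In turn, 9 of the 10 genes that had been below 0 came to lie above it, among them Mrpl4 at 0.17 and Mrps34 at 0.36, and only Mrps26 stayed below, at -0.34. Mrpl17, Mrpl57 and Mrps30 changed from positive to negative values between -0.12 and -0.11. When transcript length was corrected as well, a setting chosen after seeing the data, the medians were 0.15 and 0.08, and 26 genes were higher at an unadjusted p under 0.05, against 11.7% of all genes tested. In that setting Mrps18c had 0.37, Mrps33 0.08, Mrps22 0.11, Mrpl50 0.15, Mrps36 0.04 and Mrpl42 0.02, and Mrpl32 had 0.39 with an adjusted p = 0.039 in edgeR.

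**Figure D4:**
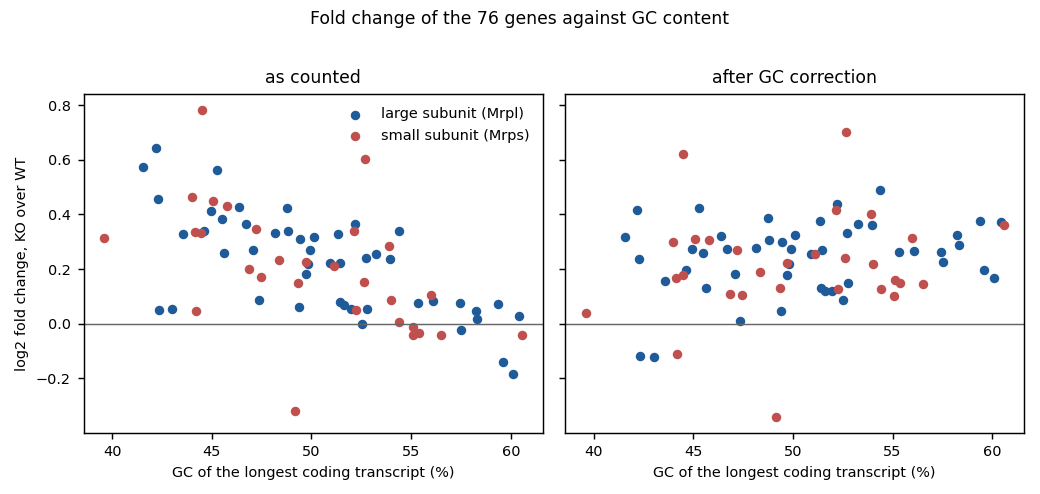
Log2 fold change of KO over WT (y axis) against the GC content of the longest coding transcript in percent (x axis) for the 76 genes, as counted (left) and after GC correction (right), with large-subunit genes in blue and small-subunit genes in red. The left panel slopes down with a Pearson correlation of -0.62, and the right panel has 0.21.

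Levels per transcript length varied widely among the 76 genes. On the scale of CPM per kilobase of the median coding transcript, the highest WT levels in the large subunit were those of Mrpl42 at 79.4, Mrpl52 at 78.0 and Mrpl12 at 71.9. In the small subunit they were those of Mrps21 at 76.2, Mrps23 at 72.1 and Mrps18b at 68.7. Mrpl42 and Mrps23 are proteins of mitochondrial origin, and both lay higher in all KO libraries, with log2 fold changes of 0.37 and 0.34. The lowest were Mrpl47 at 5.30, Mrpl1 at 5.67 and Mrpl23 at 6.73 in the large subunit, and Mrps25 at 7.45, Mrps16 at 8.96 and Mrps30 at 9.38 in the small. The order depends on the transcript taken as a gene's length, since 14 of the 20 highest stayed among the 20 highest when the longest transcript was used.

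Mrpl23 was the only gene with fewer than 100 counts in a library, at 101, 87.1 and 79.1 in WT and 118, 87.2 and 69.0 in KO. Its processed pseudogene Mrpl23-ps1 is listed with 664, 466 and 611 counts in WT and 695, 654 and 509 in KO. Between 84.3% and 88.5% of the reads assigned to this pair were thus given to the pseudogene, so the level and the log2 fold change of Mrpl23, 0.07 ± 0.219 (SE), are uncertain. The 5 other pseudogenes named after members had 0 counts in all libraries. Of the large-subunit genes left out by their listed type, Mrpl20 had a log2 fold change of 0.26 ± 0.137 (SE) and Mrpl33 one of 0.59 ± 0.202 (SE).

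The ribosomal RNAs of the mitoribosome were read from the same table, although the library kit selects polyadenylated RNA. mt-Rnr2, the RNA of the large subunit, stood at 266, 189 and 209 CPM in WT and 326, 885 and 670 CPM in KO, without overlap. mt-Rnr1, the RNA of the small subunit, stood at 147, 93.2 and 113 CPM in WT and 142, 548 and 377 CPM in KO, so KO library 1 lay within the WT range. The log2 fold changes were 1.50 ± 0.311 (SE) and 1.60 ± 0.407 (SE), with adjusted p = 0.145 and 0.147 in edgeR.

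Of 5 genes for mitoribosomal proteins that carry other symbols, Ptcd3 and Chchd1 lay higher in all KO libraries, with log2 fold changes of 0.46 and 0.45 and unadjusted p = 0.00649 and 0.0328 in edgeR. Dap3, a small-subunit protein also known as a mediator of cell death, had 0.04, Aurkaip1 had 0.10 and Gadd45gip1 had -0.18. After GC correction these were 0.07, 0.30 and -0.04, and the median of the 5 was 0.26, against 0.10 as counted.

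Lists of genes that build and serve the mitoribosome had medians nearer to 0 than its proteins. No gene of the lists that follow passed the limits in edgeR, and their counts at an unadjusted p under 0.05 stand against 13.0% higher and 13.2% lower of all genes tested. Of 29 assembly factors, 16 had a positive log2 fold change, with a median of 0.04, and 3 were higher and 1 lower at an unadjusted p under 0.05. The 2 with the smallest p were Nsun4, an RNA methyltransferase of ribosome assembly, and Tfb1m, which methylates the small-subunit RNA, with 0.36 ± 0.117 (SE) and 0.44 ± 0.141 (SE). Of 20 translation factors, 13 were positive with a median of 0.08, and 4 were higher and 0 lower at that p, and the initiation factor gene Mtif2 at 0.38 and Mtres1 at 0.49 had the smallest p. Of 23 genes that charge mitochondrial tRNAs, 12 were positive with a median of 0.03, and 2 were higher and 2 lower, with Rars2 at 0.40 and Aars2 at -0.49. Of 16 regulators of mitochondrial transcription and biogenesis, 8 were positive with a median of 0.04, and 4 were higher and 3 lower, with Mterf2 at 1.38 and Polrmt, the mitochondrial RNA polymerase, at -0.64.

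Polrmt lay lower in all KO libraries, at 30.4, 39.1 and 33.5 CPM in WT and 27.6, 23.5 and 15.02 CPM in KO. After GC correction its log2 fold change was -0.27, and that of Aars2 was -0.13. Nuclear subunits of the respiratory chain had a median of 0.28 over 81 genes, of which 75 were positive and 37 higher and 0 lower at an unadjusted p under 0.05. Those with the smallest p were Ndufv2 and Ndufa9, both of complex I, at 0.48 and 0.40. Cytosolic ribosomal protein genes had a median of 0.28 over 84 genes, of which 81 were positive and 42 higher and 0 lower, where Rpl14 at 0.54 and Rpl22l1 at 1.06 had the smallest p. As counted, the medians of both lists thus lay close to the 0.22 of the 76 genes. After GC correction they were 0.348 for the respiratory chain and 0.343 for the cytosolic list, against 0.255 for the 76 genes. At an unadjusted p under 0.05 in edgeR, 56 and 58 were then higher, against 12.6% of all genes tested. Without WT library 2 and KO library 3, 48 and 69 were higher at that p, against 8.98%. No test of the lists against each other was made. Median length (longest transcript) was 1368.5 bases in the 76 genes, 865 in the respiratory chain list and 910 in the cytosolic ribosomal list. It was 2014 in assembly factors, 2637 in translation factors, 3046 in tRNA synthetases, 3620 in regulators and 3027.5 in all genes tested. A library's deviation correlated with log2 length at -0.28 in KO library 2 and between -0.03 and 0.20 in the others. The part of length in these contrasts was not tested.

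**Figure D5:**
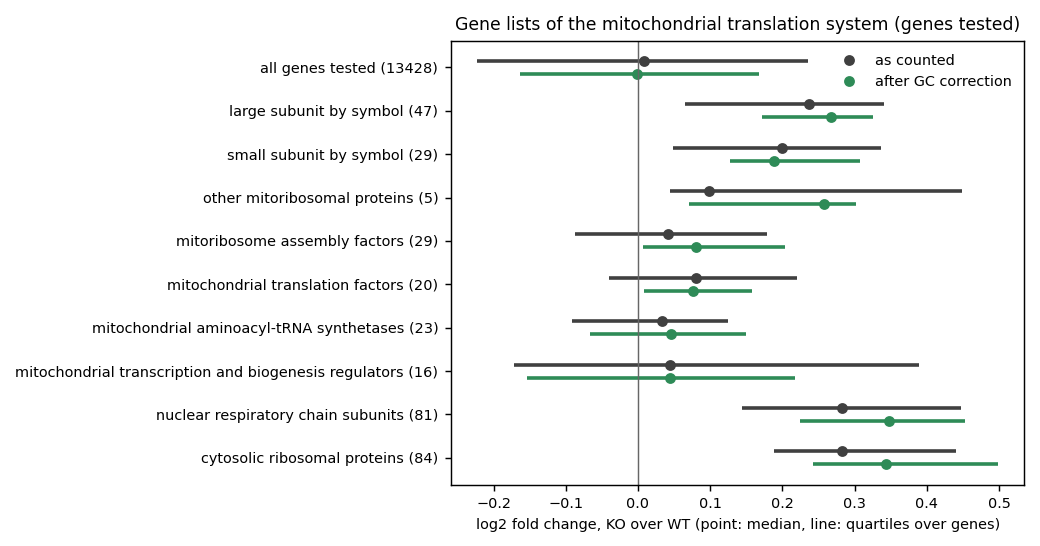
Median (points) and quartiles (lines) of the log2 fold change of KO over WT (x axis) for gene lists of the mitochondrial translation system, with the number of genes tested in brackets, as counted in grey and after GC correction in green. Both subunits, the respiratory chain subunits and the cytosolic ribosomal proteins lie to the right of all genes tested, and the lists of assembly factors, translation factors, tRNA synthetases and regulators lie nearer to 0.

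The promoters of the members were examined for shared letters. The RefSeq table of GRCm38.p6 held 73 windows for 67 of the 76 genes, each of 300 bases around an annotated start and read along the gene. The motifs were searched on both strands. The core of the site of NRF1, a regulator of nuclear genes for mitochondria, was searched as TGCGCA and stood in 30.1% of the members' windows, against 7.76% of all 32851 windows. The core bound by ETS factors such as GABP, CCGGAAG, stood in 34.2% against 8.86%. The core of YY1, AAGATGGCG, stood in 11.0% against 1.40%, and the SP1 box GGGCGG in 53.4% against 35.7%. The CCAAT box, read as ATTGG, stood in 38.4% against 37.4%, and TATAAA in 6.85% against 13.6%. The median GC content was 59.0% in the members' windows and 52.7% in all, and its part in these shares was not tested. At least 1 of the NRF1, ETS and YY1 cores stood in 58.9% of the members' windows and in 16.3% of all.

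Medians of genes with and without the letters were compared as counted and after GC correction. The median log2 fold change was 0.17 in the 21 genes with the NRF1 core and 0.26 in the 46 without it, and 0.18 and 0.27 after GC correction. It was 0.22 in the 25 genes with the ETS core and 0.23 in the 42 without, and 0.26 and 0.25 after GC correction, so the order turned. For YY1 it was 0.09 in 8 and 0.24 in 59 genes, and after GC correction 0.21 and 0.26. The promoters below are those of the 3 genes with the largest values among the non-overlapping ones, Mrps18c, Mrpl32 and Mrps21, and of Mrps26, the gene with the lowest. Capitals mark the NRF1, ETS and SP1 letters on either strand, where CTTCCGG is the ETS core and CCGCCC the SP1 box on the other strand. The YY1 core occurs in none of these 4. The windows lie at chr5:100798509-100798808 on the plus strand for Mrps18c, chr13:14612988-14613287 on the minus strand for Mrpl32, chr3:95871465-95871764 on the minus strand for Mrps21 and chr2:130563507-130563806 on the plus strand for Mrps26.
Mrps18c: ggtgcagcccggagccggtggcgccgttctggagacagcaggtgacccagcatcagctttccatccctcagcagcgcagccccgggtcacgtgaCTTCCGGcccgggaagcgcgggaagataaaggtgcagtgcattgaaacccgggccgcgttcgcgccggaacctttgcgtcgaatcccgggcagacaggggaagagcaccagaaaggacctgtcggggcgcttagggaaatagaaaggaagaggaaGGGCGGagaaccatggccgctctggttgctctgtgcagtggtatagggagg
Mrpl32: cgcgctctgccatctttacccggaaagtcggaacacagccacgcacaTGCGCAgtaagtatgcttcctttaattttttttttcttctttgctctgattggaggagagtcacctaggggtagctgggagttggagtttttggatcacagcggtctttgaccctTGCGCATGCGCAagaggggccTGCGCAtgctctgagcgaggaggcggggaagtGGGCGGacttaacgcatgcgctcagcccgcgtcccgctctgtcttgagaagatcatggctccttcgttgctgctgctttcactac
Mrps21: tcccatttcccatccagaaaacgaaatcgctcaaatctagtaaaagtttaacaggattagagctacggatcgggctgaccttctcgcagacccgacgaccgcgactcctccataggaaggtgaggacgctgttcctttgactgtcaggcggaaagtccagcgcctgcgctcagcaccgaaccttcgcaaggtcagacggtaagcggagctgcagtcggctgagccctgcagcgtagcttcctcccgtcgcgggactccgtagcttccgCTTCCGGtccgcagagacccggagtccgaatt
Mrps26: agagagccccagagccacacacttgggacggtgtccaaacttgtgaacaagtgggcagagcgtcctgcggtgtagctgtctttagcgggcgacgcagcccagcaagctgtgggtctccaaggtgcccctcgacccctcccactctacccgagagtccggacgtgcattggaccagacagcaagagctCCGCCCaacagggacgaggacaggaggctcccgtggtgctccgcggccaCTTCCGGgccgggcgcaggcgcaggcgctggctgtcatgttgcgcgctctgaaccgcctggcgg
The promoter of Mrpl32 holds the NRF1 core 4 times, of which 3 lie between 67 and 88 bases before the start, and no ETS core. Those of Mrps18c, Mrps21 and Mrps26 hold an ETS core each and no NRF1 core. Mrps26, at -0.32, thus shares its ETS letters with Mrps18c, at 0.78.

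Many members start close to a gene on the other strand, and whether such pairs share a promoter was not tested. In the GENCODE M21 annotation of GRCm38, 33 of the 76 genes (43.4%) had a protein coding gene on the opposite strand that starts within 1000 bases, against 16.8% of the 11898 coding genes tested. Mrps18c starts 29 bases from Helq, a DNA helicase gene, and Mrpl32 starts 75 bases from Psma2, a proteasome subunit gene. Mrps12 and Sars2, a mitochondrial tRNA synthetase gene, start 172 bases apart, and Mrpl46 and Mrps11 are each other's neighbours at 412 bases.

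The neighbours had a median near 0. Of the 33 neighbours, 30 passed the filter on low counts, and that median log2 fold change was -0.01. At an unadjusted p under 0.05 in edgeR, 6 of these 30 were higher and 4 lower, against 13.0% and 13.2% of all genes tested. Helq stood at 0.03 beside the 0.78 of Mrps18c, whereas Psma2 stood at 0.38 beside the 0.64 of Mrpl32 and Ndufb5, a complex I gene 615 bases away, at 0.51 beside the 0.56 of Mrpl47. Sars2 stood at -0.38 beside -0.04 for Mrps12, and Ppp1r10, a regulator of a protein phosphatase, at -0.37 beside 0.15 for Mrps18b. The counting tool's strand setting is not given in the sources used here, so reads where such pairs overlap may not be separated.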

How the data were processed

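RNA of 3 WT and 3 KO cultures of RANKL-primed OCPs was sequenced from stranded mRNA libraries. The authors deposited estimated counts per gene, not normalized and partly not whole. The submitters' processing notes name fastp, HISAT2, StringTie, RSEM and the build GRCm39, with no versions. The table also holds the authors' mean count of each genotype and pathway terms, which were not used. Libraries were grouped by the genotype in their labels.

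Counts were rounded and genes kept by filterByExpr were compared with edgeR 4.0.16 (R 4.3.3) by TMM, glmQLFit with legacy = FALSE and glmQLFTest, two-sided, with Benjamini-Hochberg adjustment over the 13428 genes tested. The common biological coefficient of variation was 0.142. DESeq2 1.42.0 and limma-voom (limma 3.58.1) were alternatives, beside other scalings, count filters and limits, a replicate block, each library left out, and a GC correction (a natural spline of each library's deviation on GC, 5 degrees of freedom). The members' counts, 69.0 to 2113 a library, and 3 libraries a genotype limit the precision. An exact permutation test of 3 against 3 cannot give a p under 0.1, so none is given.

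The members and lists were chosen with earlier results of these data known. Named members are those past the limits, the 5 largest increases and decreases of each subunit (of genes without overlap where at least 5 exist), the 3 highest and lowest levels per length, and members fixed for their role. Mrpl17, Mrpl46, Mrpl48, Mrpl51, Mrpl57, Mrps11, the neighbours and the genes of other lists beyond the 2 with the smallest p were named after their values were seen. GC content, length and neighbours come from GENCODE M21 on GRCm38, another build than that of the counts, and no position was converted. Intervals are 95% intervals of the edgeR fit. The study's proteome, qRT-PCR and animal experiments were not analysed here.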

Additional observations from a re-analysis of the deposited data

How the results depend on the processing

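No alternative put a member past the limits, under any of the scalings, filters, tests, corrections and left-out libraries tried, and in the fit with all libraries and no correction edgeR had 0 members at an adjusted p under 0.05. With that looser limit and the same fold limit, the fits gave 9 members in DESeq2, 1 with GC and length correction (Mrpl32) and 0 in the others. With 1 library left out at a time, the count of members higher at an unadjusted p under 0.05 in edgeR ranged from 16 to 33. The lowest count came without WT library 2 and the highest without KO library 1. The shares of all genes tested in these fits are not given here, so the counts stand without a background. The difference between the medians of the subunits ranged from -0.002 to 0.07. With GC correction 44 members were higher at that p, against 12.6% of all genes tested, and the difference between the medians was 0.079. The summed levels and their ratio moved by less than the spread between replicates under the other scalings, GC correction, equal weights, subunits by structure and each library left out, the settings in which they were computed. Of 34 named members, 20 kept their direction in all 19 settings. Those that did not lay near 0 or were low in KO library 3, and the cause was not tested.

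Same-numbered WT and KO libraries did not deviate together, with correlations of -0.22, 0.08 and 0.17, and WT library 2 correlated best with KO library 1, so the numbers were not read as pairs. With the replicate block, 26 members were higher and 1 lower (Mrps26) at an unadjusted p under 0.05 in edgeR. The share of all genes tested in this fit is not given here, so these counts stand without a background. Mrpl10 had a log2 fold change of 4.7e-05 and Mrpl52 one of -0.0041. With the replicate block and GC correction, 36 members were higher and 1 lower at that p, again without a share of all genes beside them. In that fit the difference between the medians was 0.08. The log2 fold change was 0.086 for Mrpl10, 0.23 for Mrpl2, 0.20 for Mrpl38, 0.17 for Mrpl4 and 0.15 for Mrps12. It was 0.095 for Mrps24, -0.12 for Mrps30, 0.35 for Mrps34 and 0.15 for Mrps7.

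Direction was reversed for Mrpl10 with DESeq2 size factors (0.00073), for Mrpl34 with library size alone (-0.00018) and for Mrpl52 with limma-voom (-0.031). With GC correction it was reversed for Mrpl10 (0.086), Mrpl2 (0.23), Mrpl38 (0.20), Mrpl4 (0.17), Mrps12 (0.14), Mrps24 (0.10), Mrps30 (-0.11), Mrps34 (0.36) and Mrps7 (0.15). Of 3 settings chosen after seeing the data, GC content averaged over the transcripts gave 0.11, 0.21, 0.19, 0.15, 0.19, 0.089, -0.14, 0.35 and 0.14 for the same genes in that order. GC and length correction gave medians of 0.15 and 0.078 for the large and small subunit, a difference of 0.07, and 0.059 for Mrpl2, -0.10 for Mrpl23, 0.093 for Mrpl38, 0.045 for Mrpl4, -0.014 for Mrpl44, -0.12 for Mrps30, 0.20 for Mrps34 and 0.10 for Mrps7. Leaving out WT library 2 and KO library 3 together gave 0.11 for Mrpl10, 0.047 for Mrpl2, 0.03 for Mrpl4, 0.082 for Mrps12 and 0.12 for Mrps24, with medians of 0.17 and 0.16 for the large and small subunit and 26 members higher at an unadjusted p under 0.05, against 8.98% of all genes tested.

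With 1 library left out, the log2 fold change ranged from -0.065 to 0.083 for Mrpl10, -0.098 to 0.13 for Mrpl34, -0.17 to 0.40 for Mrpl52, -0.13 to 0.26 for Mrpl23, -0.18 to 0.18 for Mrps12 and for Mrps24, -0.075 to 0.0039 for Mrps34, -0.014 to 0.24 for Mrpl12, -0.061 to 0.15 for Mrpl44, -0.014 to 0.086 for Mrps30 and -0.11 to 0.077 for Mrpl2.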
